A study of Mus musculus with 10 samples.

Results

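The plasminogen activators Plau and Plat, the urokinase receptor Plaur and the serpin inhibitors Serpine2 and Serpinb2 were examined in mouse embryonic fibroblasts (MEFs) with and without Zbtb4. The members were chosen by name as genes of the plasminogen system, some of which senescent cells secrete, and 4 of the 5 were measured, among 22180 genes in all. No probe set used carries the symbol of Serpine2, which is not analysed here. Each of the 4 has 1 probe set that carries its symbol alone. The study compared 5 arrays of Zbtb4 knock-out cells with 5 arrays of wild-type cells. All were primary MEFs from the dorsal skin of embryos at day E13.5, whose biotin-labelled total RNA was read on one-colour Affymetrix arrays. The labels name neither the mouse strain nor the deleted part of Zbtb4, and whether each numbered array of a genotype is a separate embryo is not stated. The mean level of 3 Y-linked genes ran from 2.49 to 6.42 on knock-out and from 2.52 to 6.26 on wild-type arrays. The arrays of a genotype are thus not all repeats of the same embryo. How many embryos they stand for is unknown, and the p-values reflect the spread of these samples alone, part of which may be technical.

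Plasminogen is a circulating zymogen that 2 serine proteases cut into plasmin, which dissolves fibrin and breaks down extracellular matrix. Urokinase (uPA, encoded by Plau) works mainly at the cell surface, where it binds its receptor uPAR (encoded by Plaur), and tissue plasminogen activator (tPA, encoded by Plat) works best when bound to fibrin. Serpins are suicide inhibitors: the protease cuts a loop of the serpin and stays trapped in a covalent complex. Serpinb2 encodes plasminogen activator inhibitor 2, much of which remains inside the cell, and Serpine2 encodes protease nexin 1, which blocks thrombin as well as urokinase. Fibroblasts are a known source of urokinase, its receptor and protease nexin 1. The Zbtb4 protein has zinc fingers with which it recognises methylated CpG sites in DNA.

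The values are log2 expression levels as deposited, and the precision is limited by the number of arrays. The median over genes, used below as a landmark, ran from 4.29 to 4.34 over the arrays. Zbtb4 itself averaged 5.45 ± 0.27 on knock-out and 6.07 ± 0.11 on wild-type arrays (SD, n = 5 each). Its groups of arrays did not overlap, which held for 0.987% of all genes. Limma tests each gene with its own spread, drawn towards a value shared across genes. It found 0 of 22180 genes with a Benjamini-Hochberg adjusted p under 0.05, or 0.0%. At an unadjusted p under 0.05 it found 1326, or 5.98%. Zbtb4 itself, with a log2 difference of -0.62, thus did not pass after adjustment (limma adjusted p = 0.628). All 11 fibroblast markers examined lay above the gene median on all 10 arrays. Their mean level ran from 9.47 to 9.73 on knock-out and from 9.45 to 9.84 on wild-type arrays. The mean level of 16 macrophage and leukocyte markers ran from 4.1 to 5.5 on knock-out and from 4.39 to 4.83 on wild-type arrays, with the highest value on knock-out array 3 and the lowest on knock-out array 5. The means of 14 of the 16 were higher in the knock-out and those of 2 lower, with a median log2 difference of 0.11. Of these markers Ptprc, Adgre1, Itgam and Mrc1 lay below the gene median on all 10 arrays, while Lyz2 reached 8.41 and Tyrobp 7.49. For other cell types the mean levels over all arrays were 3.12 to 3.38 for 7 keratinocyte and 4.43 to 4.92 for 6 skeletal muscle genes. For 10 endothelial genes they were 3.6 to 3.8 on knock-out and 3.45 to 3.7 on wild-type arrays. Of these 10, 8 means were higher in the knock-out and 2 lower, and 2 had groups that did not overlap. The endothelial gene Emcn (5.72 to 7.15) and the muscle genes Des (5.96 to 7.53) and Actc1 (4.6 to 6.14) lay above the gene median on all 10 arrays. The endothelial genes Pecam1, Cdh5, Tek, Tie1, Esam, Robo4 and Cldn5 lay below it on all 10. So did the muscle genes Myod1, Myf5 and Chrna1, while Kdr, Erg and Myog lay below it on some arrays.

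None of the 4 measured genes differed between the genotypes beyond the spread of the arrays. In each of them the knock-out and wild-type arrays overlapped, whereas groups did not overlap for 0.987% of all genes. The difference was 0.19 for Plau, -0.12 for Plat, -0.023 for Plaur and -0.12 for Serpinb2, each as knock-out minus wild type on the log2 scale. The median size of the difference over all genes was 0.078. A larger difference than that of Plau was seen in 12.4% of genes, and a larger one than that of Plaur in 83.8%.

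**Figure D1:**
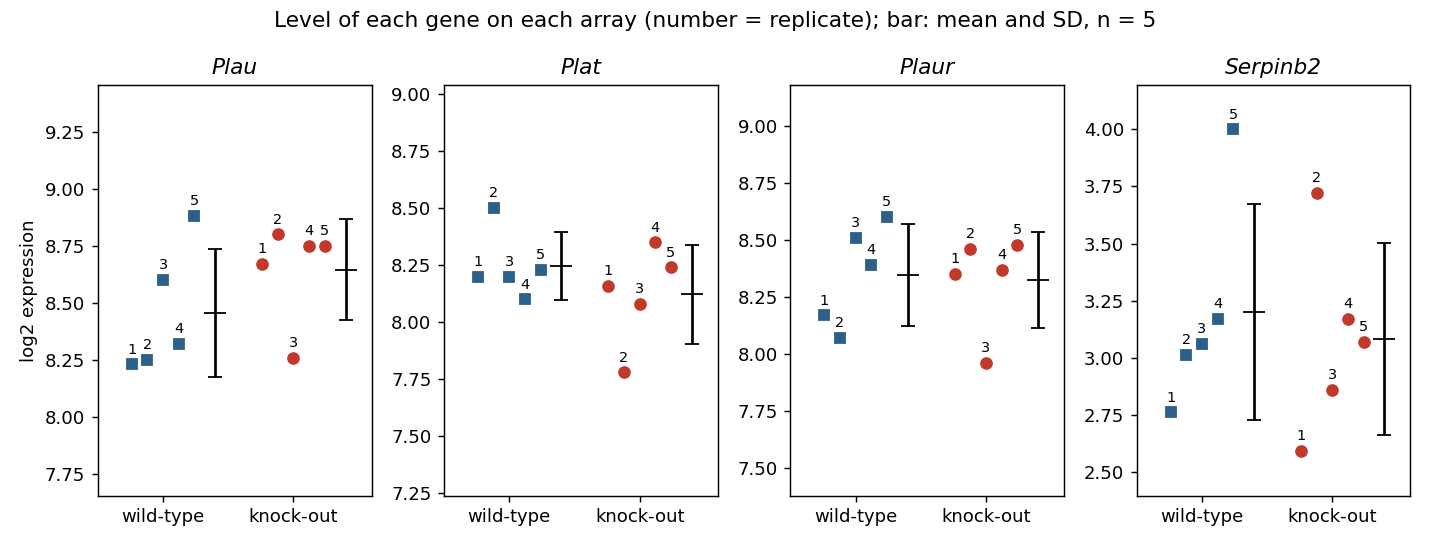
Log2 expression of Plau, Plat, Plaur and Serpinb2 on each of the 10 arrays, with wild-type arrays as squares and knock-out arrays as circles; the number beside a point is the replicate, and the black bar is the mean and SD of 5 arrays. The genotypes overlap in every panel, and knock-out array 3 is the lowest of its genotype for both Plau, at 8.26, and Plaur, at 7.96.

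Urokinase, the product of Plau, is the protease that uPAR holds at the cell surface. Its gene was at 8.67, 8.8, 8.26, 8.75 and 8.75 on knock-out arrays 1 to 5 and at 8.23, 8.25, 8.6, 8.32 and 8.88 on wild-type arrays 1 to 5. On the knock-out side 4 arrays were high and array 3 was low, while 3 wild-type arrays were low and arrays 3 and 5 were high. The means were 8.65 ± 0.22 in the knock-out and 8.45 ± 0.28 in the wild type (SD, n = 5 each). The log2 difference was 0.19 (SE 0.14), and its 95% interval of -0.11 to 0.49 spans 0.928 to 1.41 times the wild-type signal (limma adjusted p = 0.857; exact two-sided permutation p = 0.278 over the 252 ways to split the arrays). Without wild-type array 5, the highest of all, the difference was 0.30 (limma adjusted p = 0.655).

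Plat, which encodes the fibrin-dependent activator tPA, was at 8.16, 7.78, 8.08, 8.35 and 8.24 on knock-out arrays 1 to 5. On wild-type arrays 1 to 5 it was at 8.2, 8.5, 8.2, 8.1 and 8.23. Knock-out array 2 was the lowest and wild-type array 2 the highest of the 10, and the other 8 lay between 8.08 and 8.35. The difference was -0.12 (SE 0.11), with a 95% interval of -0.36 to 0.11 (limma adjusted p = 0.881; exact permutation p = 0.365). It came to -0.037 without knock-out array 2. The activators thus had means on opposite sides of the wild type, with neither difference passing the test.

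Plaur, the receptor that anchors urokinase through a lipid tail, was at 8.35, 8.46, 7.96, 8.37 and 8.48 on knock-out arrays 1 to 5. The wild-type arrays 1 to 5 gave 8.17, 8.07, 8.51, 8.39 and 8.6. The same knock-out array, 3, was lowest as for Plau, and the same wild-type array, 5, was highest. The means of 8.33 ± 0.21 and 8.35 ± 0.23 (SD, n = 5 each) differed by -0.023, with a 95% interval from -0.29 to 0.25 (limma adjusted p = 0.988; exact permutation p = 0.897). The sign of this difference turned when knock-out array 3 or wild-type array 3 or 5 was left out, and the interval holds changes of up to 1.19-fold higher and down to 0.816 times the wild-type signal.

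Serpinb2, the inhibitor of both activators, was at 2.59, 3.72, 2.86, 3.17 and 3.07 on knock-out arrays 1 to 5 and at 2.76, 3.01, 3.06, 3.17 and 4.0 on wild-type arrays 1 to 5. All 10 values lay below the median over genes of their own array, and no threshold for background came with the values. Knock-out array 2 and wild-type array 5 stood highest in their genotypes. The difference of -0.12 had a 95% interval from -0.62 to 0.38, the widest of the 4 (limma adjusted p = 0.949; exact permutation p = 0.651), and its sign turned without wild-type array 5, to 0.08, or without knock-out array 1, to 0.0023. A further probe set, 17216469, is annotated to both Serpinb10 and Serpinb2 and lay between 2.24 and 2.51 on the 10 arrays.

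The genes differed more between arrays of 1 genotype than between the genotypes, and part of that spread was shared. After the mean of each genotype was taken away, Plau and Plaur were high and low on the same arrays. Knock-out array 3 lay below its genotype's mean for both Plau (-0.39) and Plaur (-0.37), and wild-type array 5 lay above by 0.42 and 0.26. Wild-type arrays 1 and 2 were below for both genes, and knock-out arrays 2, 4 and 5 and wild-type array 3 were above for both. Wild-type array 4 alone had them on opposite sides, with -0.13 for Plau and 0.04 for Plaur. Over the 10 deviations r was 0.93 and Spearman's rho 0.92. In an exact permutation test over the 14400 orders within genotypes, p was 0.00076 for r and 0.00236 for rho, or 0.00458 and 0.0142 after Benjamini-Hochberg adjustment over the 6 pairs of genes.

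The deposited levels themselves gave a looser relation. Plau had a gap in its levels, with 4 arrays from 8.23 to 8.32 and 6 arrays from 8.60 to 8.88, in which Plaur ran from 7.96 to 8.39 and from 8.35 to 8.60. Over all 10 arrays r was 0.83 (permutation p = 0.00238, adjusted 0.0143) and rho 0.72 (permutation p = 0.0232, adjusted 0.0614). The pooled values span the gap, which was noticed after the levels were seen. Without wild-type arrays 1 and 2, those farthest from the median of Plau, r was 0.75 (exact permutation p = 0.0198, adjusted 0.119), and without wild-type array 5 it was 0.79 with an adjusted exact permutation p of 0.0844. With 5 arrays a genotype, no separate r is given for each. For scale, 119 of the 22179 other genes, or 0.537%, had a higher r with Plau than Plaur did. This share is for the levels, and none was worked out for the deviations from the genotype means.

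**Figure D2:**
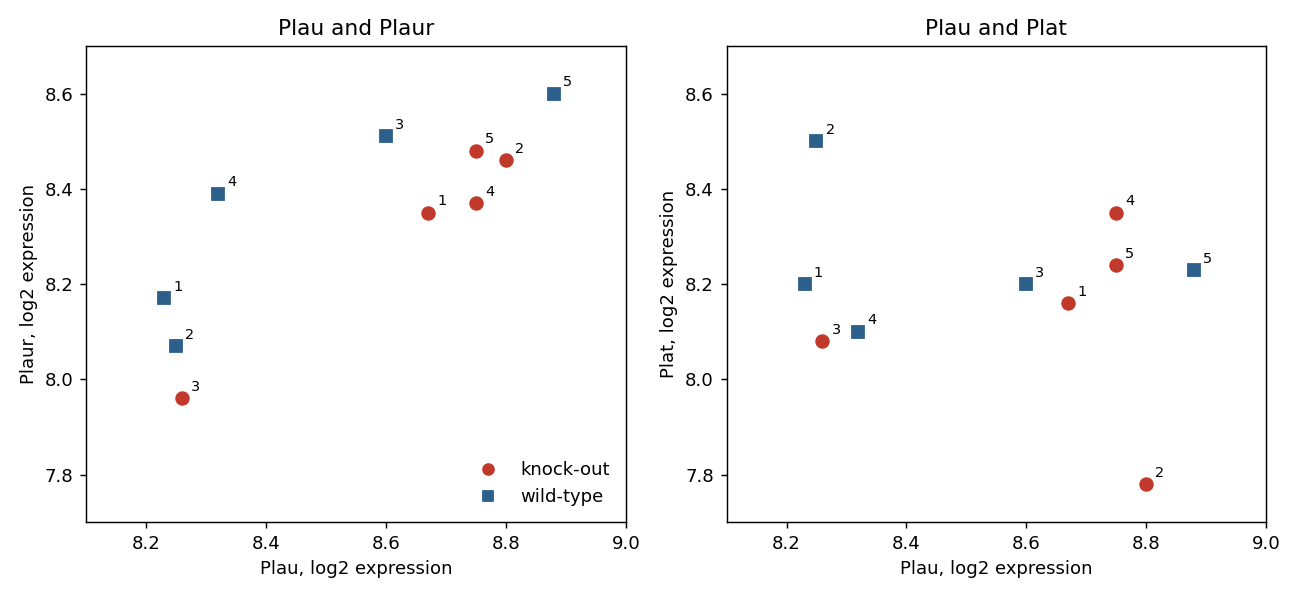
Log2 expression of Plaur (left) and Plat (right) against that of Plau, 1 point per array, with knock-out arrays as circles, wild-type arrays as squares and the replicate number beside each. Plaur is higher where Plau is higher (r = 0.83 over 10 arrays, 0.93 after the genotype means are taken away), while Plat shows no such order (r = -0.22).

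Serpinb2 leaned the same way, and after adjustment its relations passed by rank over the deviations but not by r or over the levels. Its deviations from the genotype means had r = 0.71 with those of Plau (exact permutation p = 0.0373, adjusted 0.112) and r = 0.60 with those of Plaur (exact permutation p = 0.0926, adjusted 0.185). Spearman's rho was 0.78 (exact permutation p = 0.0112, adjusted 0.0335) and 0.73 (exact permutation p = 0.0224, adjusted 0.0447). Over the levels r was 0.59 with Plau (permutation p = 0.0746, adjusted 0.149) and 0.60 with Plaur (permutation p = 0.0633, adjusted 0.149), with rho of 0.71 (permutation p = 0.0272, adjusted 0.0614) and 0.70 (permutation p = 0.0307, adjusted 0.0614). Without the 2 arrays farthest from the median of Plau or Plaur, r was 0.53 and 0.71 (adjusted exact permutation p = 0.307 and 0.148), and without wild-type array 5, where Serpinb2 was highest, it was 0.43 and 0.45. Many other genes came as close over the levels. A higher r than that of Serpinb2 was seen in 6.27% of the 22179 other genes with Plau and in 4.54% with Plaur.

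Plat did not share the pattern. Its r over the levels was -0.22 with Plau (permutation p = 0.567), -0.22 with Plaur (permutation p = 0.546) and -0.28 with Serpinb2 (permutation p = 0.408), each with an adjusted p of 0.567, and rho lay between 0.02 and 0.1 (permutation p from 0.785 to 0.972). All 3 signs turned once the 2 arrays farthest from the median were left out, to 0.12, 0.49 and 0.31. These 10 arrays do not settle whether Plat is unrelated to the other genes.

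Because macrophages also make uPAR and Serpinb2, the genes were set against the mean deviation of the 16 leukocyte markers on each array. Knock-out array 3, with the highest leukocyte level at 0.82, had the lowest Plaur of all 10 arrays, and knock-out array 5, with the lowest at -0.58, had the highest Plaur of its genotype. Over the 10 arrays r with the leukocyte level was -0.76 for Plaur (permutation p = 0.00853, adjusted 0.0341 over 4 relations; rho -0.70, adjusted 0.124). It was -0.57 for Plau (permutation p = 0.0723, adjusted 0.145; rho -0.31), -0.39 for Serpinb2 (permutation p = 0.264; rho -0.26) and -0.01 for Plat (permutation p = 0.967; rho -0.16). As deviations from the genotype means, the r of Plau was -0.71 and that of Plaur -0.76, both with an adjusted exact permutation p of 0.0197, while rho was -0.67 and -0.75 and did not pass (adjusted exact permutation p = 0.0878 and 0.0806). The relation of Plaur rests in part on knock-out arrays 3 and 5, without which r was -0.56 (exact permutation p = 0.158, adjusted 0.316). The call was also lost without knock-out array 2 (r = -0.75, adjusted exact permutation p = 0.0669), knock-out array 3 (-0.54, 0.42) or wild-type array 3 (-0.74, 0.0761). Thus Plau and Plaur did not rise with the leukocyte markers. Whether the makeup of the cultures has a part in these levels was not tested, and in bulk RNA fewer cells of a type and less RNA per cell cannot be told apart.

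**Figure D3:**
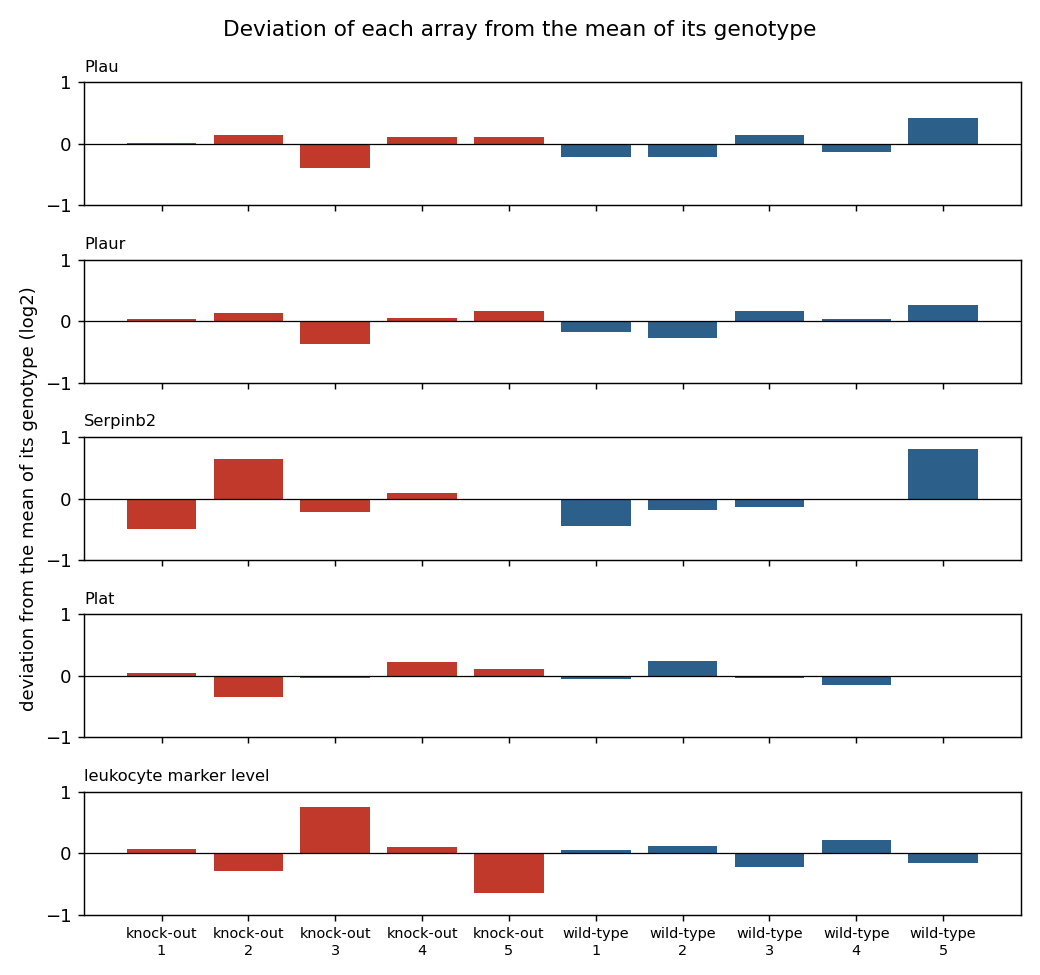
Deviation of each array from the mean of its genotype, on the log2 scale, for Plau, Plaur, Serpinb2, Plat and the mean of 16 leukocyte markers, with knock-out arrays in red and wild-type arrays in blue. Plau and Plaur have the same sign on 9 of 10 arrays, and on knock-out array 3 they lie at -0.39 and -0.37 where the leukocyte level is at 0.76.

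The genes whose levels were most like each member over the 10 arrays were sought among 10320 or 10321 named genes above the median level; being the extremes of so many, they are descriptions without a test. For Plau these were Mapk13, a kinase of the p38 family, with r = 0.93, Susd6 with 0.91 and Gprc5a, an orphan G protein-coupled receptor, with 0.91. For Plaur they were Map2k3, a kinase that activates p38, with 0.97, Prps2, which makes a precursor of nucleotides, with 0.93 and the lipid phosphatase gene Plpp3 with 0.92. For Plat they were the Wnt receptor gene Fzd6 with 0.98, Pip4p1 with 0.95 and Polr3c, a subunit of RNA polymerase III, with 0.94. For Serpinb2 they were Ergic1 with 0.94, Samd4b with 0.93 and Piezo1, a stretch-activated ion channel, with 0.92. Leaving out the 2 arrays farthest from the member's median brought Polr3c to 0.62 and Piezo1 to 0.69, while Map2k3 stayed at 0.92 and Fzd6 at 0.95. None of the 12 genes differed between the genotypes, with limma adjusted p-values from 0.842 to 0.989.

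Since Plaur and Serpinb2 are the members with a RefSeq promoter window that also had values, their 250 bases before the annotated start are shown for what could be read beside the shared pattern. No window for Plau or Plat is in the table used. Capitals mark matches to TGACTCA (the AP-1 site), GGGCGG (the Sp site) or TATAAA (the TATA box), each searched on both strands, in build GRCm38.p6. The Plaur window is chr7:24462233-24462482, plus strand, and the first of 2 overlapping Serpinb2 windows is chr1:107511173-107511422, plus strand.
Plaur: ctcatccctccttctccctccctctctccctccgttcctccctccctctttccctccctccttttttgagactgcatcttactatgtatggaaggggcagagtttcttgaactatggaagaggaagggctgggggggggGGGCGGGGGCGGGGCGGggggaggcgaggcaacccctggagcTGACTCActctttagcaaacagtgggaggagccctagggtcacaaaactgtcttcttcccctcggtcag
Serpinb2: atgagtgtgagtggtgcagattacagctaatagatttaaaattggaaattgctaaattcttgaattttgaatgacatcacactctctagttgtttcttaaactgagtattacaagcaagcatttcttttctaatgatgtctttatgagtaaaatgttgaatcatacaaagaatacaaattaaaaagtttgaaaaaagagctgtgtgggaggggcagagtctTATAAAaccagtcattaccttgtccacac

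The promoters of the receptor and the inhibitor have different letters. The Plaur window held 1 AP-1 match, from 69 to 63 bases before the start, and 3 Sp matches between 111 and 95 bases before it, the last 2 of which overlap by their shared G. The first Serpinb2 window held 1 TATA box match, from 29 to 24 bases before the start, and no match to the other motifs. In the second Serpinb2 window the TATA box match lay from 116 to 111 bases before its start. Among all 32851 windows of the same length, 4.46% held TGACTCA, 32.7% GGGCGG and 12.4% TATAAA. The Plaur window held 6 CpG dinucleotides, the median over all windows. The first Serpinb2 window held 0 and the second 3. The window of Serpine2, whose level was not measured, held 34, more than in 96.5% of windows. These matches describe the letters only, and no binding or methylation was measured.

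Of 48 other genes of the plasminogen system, 42 were measured, and none passed the adjusted threshold in either direction. Means were higher in the knock-out for 28 and lower for 14, against 11238 higher and 10942 lower over all genes. The median log2 difference was 0.051 against 0.002 over all genes. At an unadjusted limma p under 0.05 there were 5 genes, all of them higher, or 11.9% of the list against 3.25% of all genes that were higher and 2.73% that were lower at that level. The 5 genes (St14, Mmp10, Plg, Vtn and Mmp12) lay below the gene median on all 10 arrays, and 19 of the 42 had a mean below it. In none of the 42 genes were the groups of arrays free of overlap.

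Plasmin's own precursor and inhibitors were at low levels. Plg, which encodes plasminogen and is made mainly by the liver, was at 2.79 ± 0.17 in the knock-out and 2.53 ± 0.19 in the wild type (SD, n = 5 each), below the gene median on every array, and differed by 0.27 (limma adjusted p = 0.821). Of the 4 measured genes of this group 2 means were higher and 2 lower. The other activator inhibitors, with 3 measured, had a median difference of -0.04. The 4 measured genes for plasminogen-binding proteins, among them the annexin gene Anxa2, had differences from -0.11 to 0.021.

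Receptors and partners of the activators gave small differences. The 7 clearance receptors, which remove protease and inhibitor complexes from the surface, had 3 means higher and 4 lower, with a median of -0.065. Lrp2, the giant endocytic receptor megalin, was at 3.82 ± 0.14 in the knock-out and 4.12 ± 0.4 in the wild type (SD, n = 5 each; difference -0.30, limma adjusted p = 0.84), and the difference was -0.17 without wild-type array 5. The 8 partners of uPAR, integrins among them, had 7 means higher, with a median of 0.11. Vtn, which encodes vitronectin, a matrix protein that uPAR binds, differed by 0.25 (limma adjusted p = 0.829) at means of 3.26 and 3.0.

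Upstream and downstream proteases had mostly higher means in the knock-out without passing. All 4 measured genes for other proteases that start the cascade were higher, with a median of 0.13. All 4 also lay below the gene median on all 10 arrays. St14, which encodes the membrane protease matriptase, had the smallest p-value of the list, at 4.06 ± 0.16 in the knock-out and 3.78 ± 0.1 in the wild type (SD, n = 5 each), a difference of 0.28 (SE 0.089; limma adjusted p = 0.821; exact permutation p = 0.0238). Of 12 genes for proteases and factors that plasmin activates 9 means were higher and 3 lower, with a median of 0.10. The stromelysin gene Mmp10 differed by 0.33 (limma adjusted p = 0.821) and the macrophage elastase gene Mmp12 by 0.22 (limma adjusted p = 0.83), from wild-type means of 3.56 and 2.53. Of 25 other senescence-secreted factors 15 were higher and 10 lower, with a median of 0.046, and none passed the threshold.

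**Figure D4:**
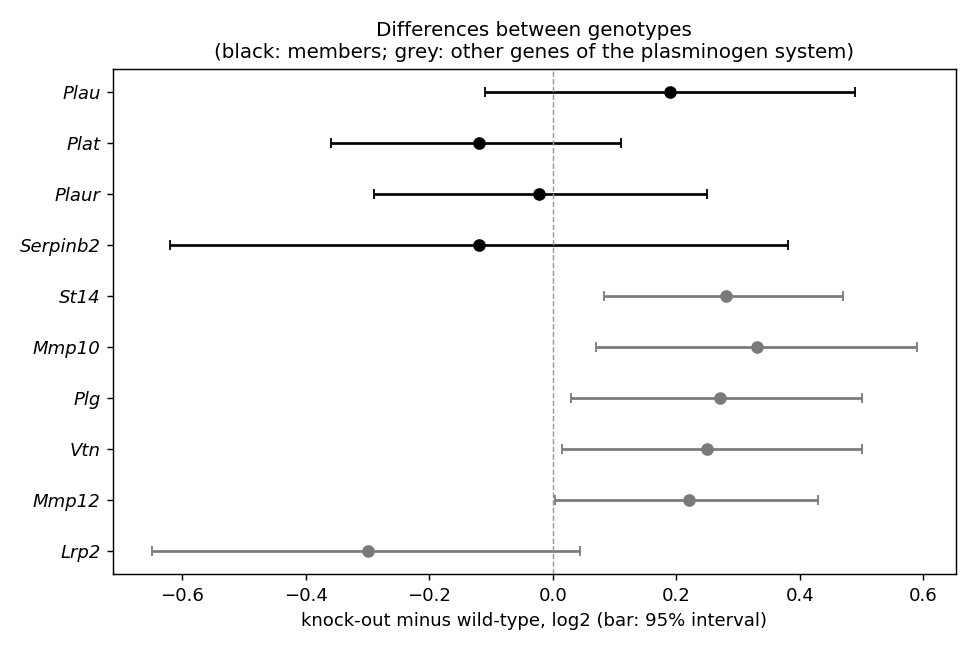
Log2 difference, knock-out minus wild type, with its 95% interval from limma, for the 4 measured members (black) and for the 6 other genes of the plasminogen system with the smallest p-values (grey). The intervals of all 4 members include 0; those of St14, Mmp10, Plg, Vtn and Mmp12 lie above 0 before adjustment, and no gene shown passes after it.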

How the data were processed

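Expression in 10 MEF samples was measured with one-colour Affymetrix arrays, as the labels state. The authors deposited log2 expression values per probe set, a scale judged from their range; the probe summary, background correction and normalization are not given in the sources used. Of 41345 probe sets, 23521 had 1 gene symbol in the platform annotation, 1814 several and 16010 none, and 23328 matched RefSeq by Entrez identifier. For each gene the single-symbol probe set with the highest mean over 10 arrays was used. limma 3.58.1 in R 4.3.3 (lmFit, eBayes) fitted the genotype difference over all 22180 genes without covariate, with Benjamini-Hochberg adjustment and a threshold of 0.05. Single genes were also compared by exact permutation over arrays. Correlations used 100000 resamples for 10 arrays and full enumeration otherwise (numpy 2.4.6, scipy 1.17.1); figures used matplotlib 3.10.9. Named genes were Zbtb4, the members, Plg, the 6 other system genes with the smallest p-values, and the 3 genes most like each member. Scripts were tested on simulated data. The members and lists were chosen with earlier results of these data known. The main fit did not pair arrays by replicate number. Same-numbered deviations correlated from -0.0455 to 0.165, which does not settle whether the numbers mark pairs. Knock-out arrays 1 and 5 correlated best with the wild-type array of the same number.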

Additional observations from a re-analysis of the deposited data

Results flagged for a closer look

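Within the knock-out, array 3 stood apart from the other 4 for both urokinase and its receptor. Plau was at 8.26 on knock-out array 3, and its gap to the nearest other array was 0.763 of the genotype's range, above the critical value of 0.71 for 5 samples. Plaur was at 7.96 on the same array, with a gap of 0.75 of the range. Chance alone puts about 1 group in 20 past this value, and more groups than those named here were checked. Plau and Plaur varied together over the arrays, so their flags are not independent of each other. The array also had the highest level of leukocyte markers, 0.82 above their mean over arrays. Without it the Plau difference was 0.29 and the Plaur difference 0.069.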

How the results depend on the processing

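Plau and Plat kept the sign of their differences in every alternative run, from 0.14 to 0.30 and from -0.18 to -0.037, and none of the 4 measured members passed the threshold in any. The alternatives were quantile normalization, median centring, leaving out the dimmest 40% of genes (Serpinb2 among them), averaging or singly testing probe sets, trend and robust variance, array weights, Y-linked genes as a covariate, the replicate block and leaving out 1 array at a time. With single arrays left out, Plaur ran from -0.093 to 0.069 and Serpinb2 from -0.28 to 0.08. The count of genes passing ran from 0 to 1 (1 without wild-type array 5), and 5 other system genes had an unadjusted p under 0.05. With the replicate block the Plau difference was 0.19 (limma adjusted p = 0.871), and the block changed no call.

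Single arrays left out gave r from 0.79 to 0.91 for Plau with Plaur, 0.43 to 0.76 for Plau with Serpinb2 (0.76, adjusted exact permutation p = 0.013, without knock-out array 1), -0.33 to 0.07 for Plau with Plat, -0.45 to 0.07 for Plat with Plaur and -0.49 to 0.14 for Plat with Serpinb2. Without the 2 farthest arrays r was 0.75 for Plau with Plaur, 0.12 for Plau with Plat, 0.49 for Plat with Plaur and 0.31 for Plat with Serpinb2. With the leukocyte level, single arrays left out gave -0.83 to -0.54 for Plaur and -0.28 to 0.22 for Plat. Without the 2 farthest arrays these were -0.56 and 0.40, and as deviations from the genotype means Plau was at -0.71 and Plat at 0.05. The runs with single arrays left out and with quantile normalization for correlations, all but the main setting for the leukocyte relations and the unadjusted count were chosen after seeing the data. The cause of these shifts was not tested.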

Other observations

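The distance between urokinase and its receptor had a smaller SD on knock-out than on wild-type arrays. Plau minus Plaur, as a log2 difference between probe sets on the same array, was 0.32, 0.33, 0.3, 0.38 and 0.27 on knock-out arrays 1 to 5 and 0.06, 0.18, 0.09, -0.07 and 0.27 on wild-type arrays 1 to 5. The means were 0.32 ± 0.043 and 0.11 ± 0.13 (SD, n = 5 each). This contrast was chosen after the values were seen and has no test.

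The most opposite gene to each member, also chosen after the fact from the same named genes above the median level, was Trib3 for Plau, with r = -0.97 over 10 arrays. Trib3, a pseudokinase gene of the amino acid stress response, ran from 5.37 to 6.65 and kept r = -0.96 without the 2 arrays farthest from the median of Plau. For Plaur it was the LIM protein gene Csrp2, with r = -0.92, for Plat Gpx8, with -0.91, and for Serpinb2 Tefm, a mitochondrial transcription elongation factor gene, with -0.97.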
